A study of Mus musculus with 9 samples.

Results

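Enolase catalyses the next to last step of glycolysis, in which 2-phosphoglycerate loses water and becomes phosphoenolpyruvate, the substrate of pyruvate kinase. Mammals make the enzyme from several genes. Eno1 encodes alpha-enolase, the form of most tissues, Eno2 encodes gamma-enolase, known from neurons, and Eno3 encodes beta-enolase, known from muscle. Eno1b is an enolase sequence that is nearly identical to Eno1 and lies on another chromosome. Its coding sequence has no intron, as is usual for a copy made from a messenger RNA. The 4 rows of the expression tables with exactly these symbols, out of 24015 rows, are described here in all 9 libraries. Eno1b was chosen by its RPKM in the 129 and B6 libraries, and the other 3 as members of its family with those values known.

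RNA was measured in adipocytes grown from the stromal vascular fraction of inguinal fat, a mouse subcutaneous depot whose precursors can become beige adipocytes. There were 3 libraries from F1 offspring, 3 from 129X1/SvJ mice (129), which the series calls obesity-resistant, and 3 from C57BL/6J mice (B6), which it calls obesity-prone. All cells had the same treatment, which began with 48 hours of an induction mix in 10% serum and 1% penicillin-streptomycin. The mix held insulin at 850 nM, rosiglitazone at 1 µM, dexamethasone at 1 µM and T3 at 1 nM. It also held indomethacin at 125 nM and isobutylmethylxanthine at 0.5 mM. Afterwards the medium kept serum, insulin, rosiglitazone and T3 at these doses, and the RNA is labelled day 7. The labels leave out the direction of the F1 cross, and whether the 3 libraries of a group are from different mice or cultures. Every p-value therefore speaks of the spread among these particular libraries, which may be technical. All 8 adipocyte markers examined were expressed, with a summed level of 36071 to 38487 RPKM in F1, 32053 to 34558 in 129 and 28316 to 32354 in B6 (RPKM is reads per kilobase of exon, scaled to the assigned reads of the library). Most of that sum was the fatty acid binding protein Fabp4, and the other 7 markers summed to 6221 to 6453 RPKM in F1, 6593 to 6948 in 129 and 6453 to 7500 in B6. Summed markers of thermogenic adipocytes (6 genes) were at 123 to 133 RPKM in F1, 102 to 110 in 129 and 67.4 to 70.3 in B6. The order of 129 and B6 in this sum was that of the uncoupling protein Ucp1, and the other 5 summed to 72.0 to 78.4 RPKM in F1, 41.1 to 45.3 in 129 and 57.9 to 59.6 in B6. Macrophage markers (6 genes) summed to 8.04 to 11.2 RPKM in F1, 5.44 to 9.14 in 129 and 9.45 to 11.1 in B6, and endothelial markers (5 genes) to 3.86 to 3.98, 2.62 to 3.26 and 5.06 to 5.80 RPKM in F1, 129 and B6. Assigned reads numbered 39686986 to 53410947 in F1, 23710908 to 28473083 in 129 and 19130022 to 26931438 in B6, so every F1 library was deeper than every parental library.

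The place of each row in the genome comes first, because the levels cannot be read without it. In mm9, the build of the tables, the Eno1 row had 12 exon blocks on chromosome 4 (149611306 to 149622982, plus strand, 1776 bases). The Eno2 row had 12 blocks on chromosome 6 (124710073 to 124719527, minus strand, 2631 bases) and the Eno3 row 12 blocks on chromosome 11 (70470678 to 70476015, plus strand, 1604 bases). The Eno1b row was in 2 places. It had 2 blocks on chromosome 18 (48204989 to 48208037, 1762 bases) and 12 blocks on chromosome 4 (149611433 to 149622982, 1649 bases) that lie on the exons of Eno1.

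Thus 1649 of the 1776 bases of Eno1, or 92.8%, belonged to both rows. The 127 bases that Eno1 had to itself were the beginning of its first exon (149611306 to 149611432). Eno1b had 1762 of its 3411 bases to itself, all on chromosome 18. The tables give 1 value per row, divided by the whole length of the row, and do not say which place a read came from. How the authors' counting treated a read that fell in both rows, or that aligned to both chromosomes, is not given in the sources used here. Eno2 and Eno3 shared no exon base with any other row.

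**Figure D1:**
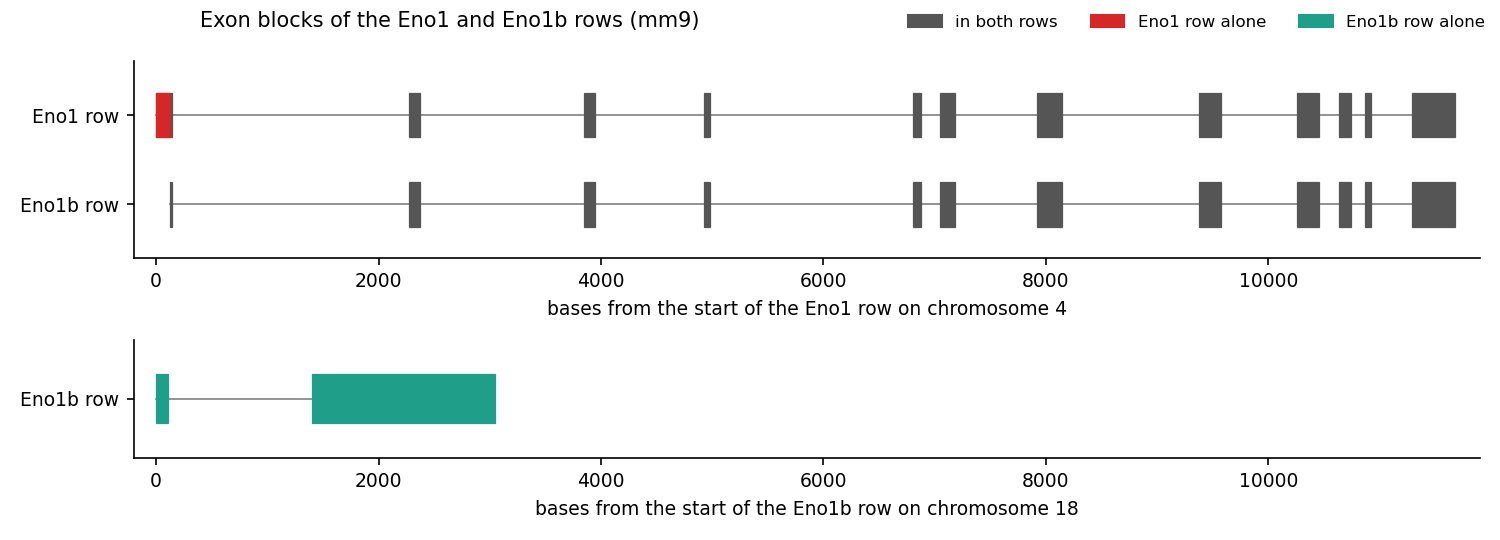
Exon blocks of the Eno1 and Eno1b rows in mm9, drawn to scale as bases from the start of the Eno1 row on chromosome 4 (top) and from the start of the Eno1b row on chromosome 18 (bottom). Grey blocks lie in both rows (1649 bases), the red block in the Eno1 row alone (127 bases) and the green blocks in the Eno1b row alone (1762 bases).

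The transcripts of the genes show how unlike the 4 members are in sequence. In GENCODE M21 transcripts of the mouse reference (GRCm38, C57BL/6J), the coding sequences of all 4 were 1305 bases long. Eno1b differed from Eno1 at 8 of these bases (99.4% identity), and the longest run without a difference was 725 bases. Eno2 differed from Eno1 at 325 bases (75.1% identity) and Eno3 differed from Eno1 at 304 bases (76.7% identity), with no identical run longer than 20 bases in either pair. Eno2 and Eno3 were 76.8% identical to each other. Of the 1692 windows of 100 bases in the Eno1b transcript, 1045, or 61.8%, also occurred letter for letter in the Eno1 transcript, as did 75.3% of the windows of 50 bases. No window of 50 bases of Eno2 or Eno3 occurred in Eno1. The read length of these libraries is not given in the sources used here, and the 129 sequence of either copy was not analysed here.

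One coding exon of 223 bases (coding bases 445 to 667) has the same length and place in Eno1, Eno2 and Eno3 and shows the contrast. Over this stretch Eno1b had 0 differences from Eno1. The same exon is printed for Eno2 and Eno3 because these are the members whose reads can be told from those of Eno1. Capitals mark the bases that differ from Eno1, 42 in Eno2 and 37 in Eno3.
Eno2, chr6:124766105-124766327, GRCm38, minus strand: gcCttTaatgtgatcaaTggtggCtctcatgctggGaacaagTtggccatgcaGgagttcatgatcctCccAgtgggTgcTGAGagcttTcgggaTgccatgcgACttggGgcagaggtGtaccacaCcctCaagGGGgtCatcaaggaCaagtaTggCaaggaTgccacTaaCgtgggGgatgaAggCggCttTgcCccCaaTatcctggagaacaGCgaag
Eno3, chr11:70660660-70660882, GRCm38, plus strand: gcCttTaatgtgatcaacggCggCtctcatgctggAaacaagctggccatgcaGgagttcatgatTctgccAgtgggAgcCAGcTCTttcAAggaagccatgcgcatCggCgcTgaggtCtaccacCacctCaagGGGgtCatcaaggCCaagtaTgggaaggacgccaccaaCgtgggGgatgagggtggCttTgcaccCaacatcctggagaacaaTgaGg
The differences are scattered singly and in short groups along both exons, and 25 positions differ from Eno1 in Eno2 and Eno3 alike.

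Eno1b was the highest enolase row in every library, by a wide margin in F1 and 129 and by a narrow one in B6. Its level was 118, 108 and 107 RPKM in the F1 libraries, 190, 200 and 191 RPKM in the 129 libraries and 5.96, 4.78 and 4.62 RPKM in the B6 libraries. The 3 groups did not overlap. For single pairs of groups, in either direction, 49.9% of all genes tested did not overlap between 129 and B6. The shares were 44.2% between F1 and B6 and 44.5% between F1 and 129. The share with all 3 groups apart was not counted. These values rested on 15923 to 19594 reads per library in F1, 15385 to 19411 in 129 and 312 to 522 in B6. The row was included here because of its difference between the parental strains, so its levels are given as a description, with no test.

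The mean of Eno1b was 193 ± 5.65 RPKM in 129 and 5.12 ± 0.736 RPKM in B6 (SD, n = 3 each), a ratio of 37.8. On the scale of log2(RPKM + 1) the difference of 129 minus B6 was 5.0 (SE 0.08), the third highest of the 11542 genes tested. F1 averaged 111 ± 6.03 RPKM, 56.1% of the way from B6 to 129 and 1.12 times the mean of the parental values. On the log2 scale, where the mid-parent value is the mean of the parental logs, F1 lay 1.70 above it (SE 0.07). F1 minus B6 was 4.19 and F1 minus 129 was -0.80 (SE 0.08 each).

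The row of Eno1, the gene of the ubiquitous enzyme, was at about 1 RPKM or below in every library. Only 127 of its 1776 bases lie outside the Eno1b row. How reads in the shared bases were assigned is not known, so the row value need not be the level of the gene. The row was listed at 1.16, 0.917 and 1.08 RPKM in F1, 0.710, 0.692 and 0.665 RPKM in 129, and 0.658, 0.854 and 0.564 RPKM in B6. These values rested on 82 to 96 reads in F1, 28 to 35 in 129 and 27 to 30 in B6. All F1 values were above all parental values, and the parental ranges overlapped. Of the genes tested, 44.2% did not overlap between F1 and B6 and 44.5% did not between F1 and 129, in either direction. How many had F1 above both parents at once was not counted.

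With 2 libraries at an RPKM of 1 or more, Eno1 missed the filter on low values, which asked for 3, and it was the only member to miss it. Without a filter, its log2 difference was 0.00 (SE 0.07) for 129 minus B6 and 0.28 (SE 0.07) for F1 against either parent. The reads of Eno1 were 0.444% to 0.524% as many as those of Eno1b in F1, 0.180% to 0.195% in 129 and 5.75% to 9.29% in B6. So of the reads assigned to Eno1b, at most these shares were assigned to Eno1 as well, although the rows have 1649 bases in common. Adding the reads of both rows and dividing by the 3411 bases of the Eno1b row gave 111, 194 and 5.48 RPKM in F1, 129 and B6. With so few reads in Eno1, this had to be close to Eno1b alone. A read left out by the counting would be in neither row, so the sum need not be the total of both genes.

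**Figure D2:**
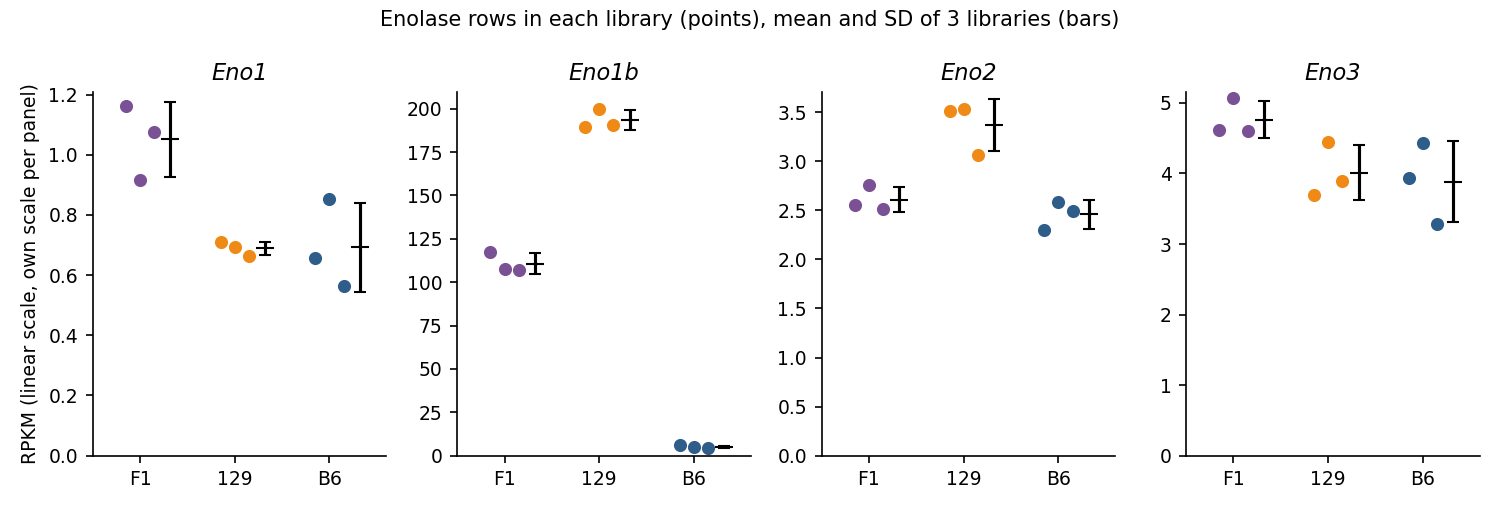
RPKM (linear axes from 0, a scale for each panel) of Eno1, Eno1b, Eno2 and Eno3 in the F1, 129 and B6 libraries. Points are libraries and the bars beside them are the mean and SD of 3. Eno1b separates the groups, from 4.62 to 5.96 in B6 up to 190 to 200 in 129, Eno2 is highest in 129, and Eno1 and Eno3 are highest in F1.

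Eno2, the enolase known from neurons, was low and was highest in 129. It stood at 2.56, 2.75 and 2.51 RPKM in F1, 3.51, 3.54 and 3.06 RPKM in 129, and 2.30, 2.58 and 2.50 RPKM in B6. The 129 libraries lay above all others, and F1 and B6 overlapped. Among all genes tested, 49.9% did not overlap between 129 and B6 and 44.5% did not between F1 and 129, in either direction. The mean was 3.37 ± 0.268 RPKM in 129 and 2.46 ± 0.147 RPKM in B6 (SD, n = 3 each), with a log2 difference of 0.34 (SE 0.06) that is given without a test because the members were chosen with this comparison known.

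In F1, Eno2 averaged 2.61 ± 0.129 RPKM (SD, n = 3). It was lower in F1 than in 129, with a log2 difference of -0.28 (SE 0.06, adjusted p = 0.00816, limma), in a comparison where 15.7% of all genes tested passed as lower and 12.0% as higher. Against B6 the difference was 0.06 (SE 0.06, limma adjusted p = 0.49), and against the mid-parent value -0.11 (SE 0.05, limma adjusted p = 0.178), neither past the threshold of 0.05. The F1 comparisons share the F1 libraries, so they are not independent of each other.

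Of 15 markers of neurons and glia 13 stayed below an RPKM of 1 in all libraries, among them the neuronal genes Rbfox3, Snap25 and Syt1. The summed level of the 15 was 4.39 to 5.0 RPKM in F1, 3.56 to 3.76 in 129 and 7.57 to 10.3 in B6. This order was that of the neuronal tubulin Tubb3, which averaged 2.19 RPKM in F1, 1.28 in 129 and 6.50 in B6. The other 14 summed to 2.30 to 2.81 RPKM in F1, 2.31 to 2.55 in 129 and 2.29 to 2.49 in B6, with overlapping ranges. Single markers differed in their order. Stmn2, a neuronal stathmin, was highest in 129 like Eno2, at 0.0836 to 0.172 RPKM in F1, 0.258 to 0.287 in 129 and 0.0585 to 0.137 in B6, on 3 to 15 reads per library. Snap25 was highest in F1, at 0.0502 to 0.101 RPKM in F1, 0.0157 to 0.0377 in 129 and 0 to 0.0166 in B6. Nefm was highest in B6, at 0.145 to 0.148 RPKM in F1, 0.170 to 0.208 in 129 and 0.210 to 0.310 in B6. The part of such cells in the level of Eno2 was not tested. In bulk RNA, fewer cells of a type and less RNA per cell cannot be told apart.

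Eno3, the enolase known from muscle, was somewhat higher in F1, but not past the threshold. It stood at 4.62, 5.07 and 4.60 RPKM in F1, 3.69, 4.44 and 3.89 RPKM in 129, and 3.94, 4.43 and 3.29 RPKM in B6. All F1 values were above all parental ones, which overlapped with each other. Taking each pair of groups alone and either direction, 44.2% of genes tested did not overlap between F1 and B6 and 44.5% between F1 and 129. The share of genes with F1 above both parents at once was not counted. The means were 4.76 ± 0.263 RPKM in F1, 4.01 ± 0.389 in 129 and 3.89 ± 0.574 in B6 (SD, n = 3 each).

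The log2 difference of Eno3 was 0.24 for F1 minus B6 (SE 0.09, limma adjusted p = 0.0554), where 31.2% of all genes passed, 11.0% as higher and 20.2% as lower. It was 0.20 for F1 minus 129 (SE 0.09, limma adjusted p = 0.11) and 0.22 against the mid-parent value (SE 0.08, limma adjusted p = 0.0552). Differences this near the threshold could pass it when a library was left out. Without B6 replicate 2, F1 minus B6 was 0.32 (limma adjusted p = 0.0144) and F1 minus mid-parent 0.26 (limma adjusted p = 0.0168). Without 129 replicate 2, F1 minus mid-parent was 0.25 (limma adjusted p = 0.0411). No other left-out library brought Eno3 past the threshold in an F1 comparison, and some moved it further away. Without B6 replicate 3, F1 minus B6 was 0.15 (limma adjusted p = 0.178). Without F1 replicate 2, F1 minus mid-parent was 0.19 (limma adjusted p = 0.183). For 129 minus B6, given without a test, the difference was 0.04 (SE 0.09).

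Most skeletal muscle markers were almost absent. Of 15 muscle markers 13 stayed below an RPKM of 1 in all libraries, and the muscle creatine kinase Ckm, the myosin Myh4 and the myogenic factor Myod1 were listed at 0 in all 9. The skeletal actin Acta1 was the highest of the list, at 2.31 to 2.58 RPKM in F1, 2.35 to 2.88 in 129 and 1.30 to 2.63 in B6. Actn3 was at 0.751 to 1.05 RPKM in F1, 0.862 to 1.37 in 129 and 0.965 to 1.03 in B6. The summed level was 4.46 to 4.69 RPKM in F1, 4.63 to 5.38 in 129 and 3.21 to 4.87 in B6. The range of F1 overlapped those of both parents. The part of muscle cells in the level of Eno3 was not tested.

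Within each group the order of the per-length levels was the same: Eno1b, Eno3, Eno2, Eno1. The neighbours in this order did not overlap within any group. In B6, however, Eno1b (4.62 to 5.96 RPKM) and Eno3 (3.29 to 4.43) lay close together, as did Eno3 (3.69 to 4.44) and Eno2 (3.06 to 3.54) in 129. Eno1b made up 92.9% ± 0.448 of the summed RPKM of the 4 rows in F1, 96.0% ± 0.159 in 129 and 42.1% ± 4.30 in B6 (SD, n = 3 each). Eno1 and Eno1b share exon bases, whereas Eno2 and Eno3 share none. The order and these shares therefore describe the rows and do not rank the genes.

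Set against the enzymes just before and after them, the enolase rows were low. Pgam1, the phosphoglycerate mutase that makes the substrate of enolase, was at 1031 ± 14.8 RPKM in F1, 864 ± 38.3 in 129 and 766 ± 64.6 in B6. Pkm, the pyruvate kinase that uses its product, was at 1177 ± 32.3 RPKM in F1, 987 ± 28.7 in 129 and 870 ± 112 in B6. The 4 enolase rows together came to 119 ± 5.98 RPKM in F1, 201 ± 6.16 in 129 and 12.2 ± 1.04 in B6 (SD, n = 3 each). That sum was 11.6% ± 0.657 of the Pgam1 level in F1, 23.3% ± 0.625 in 129 and 1.59% ± 0.159 in B6. The part that the shared bases of Eno1 and Eno1b play in these low sums was not tested.

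**Figure D3:**
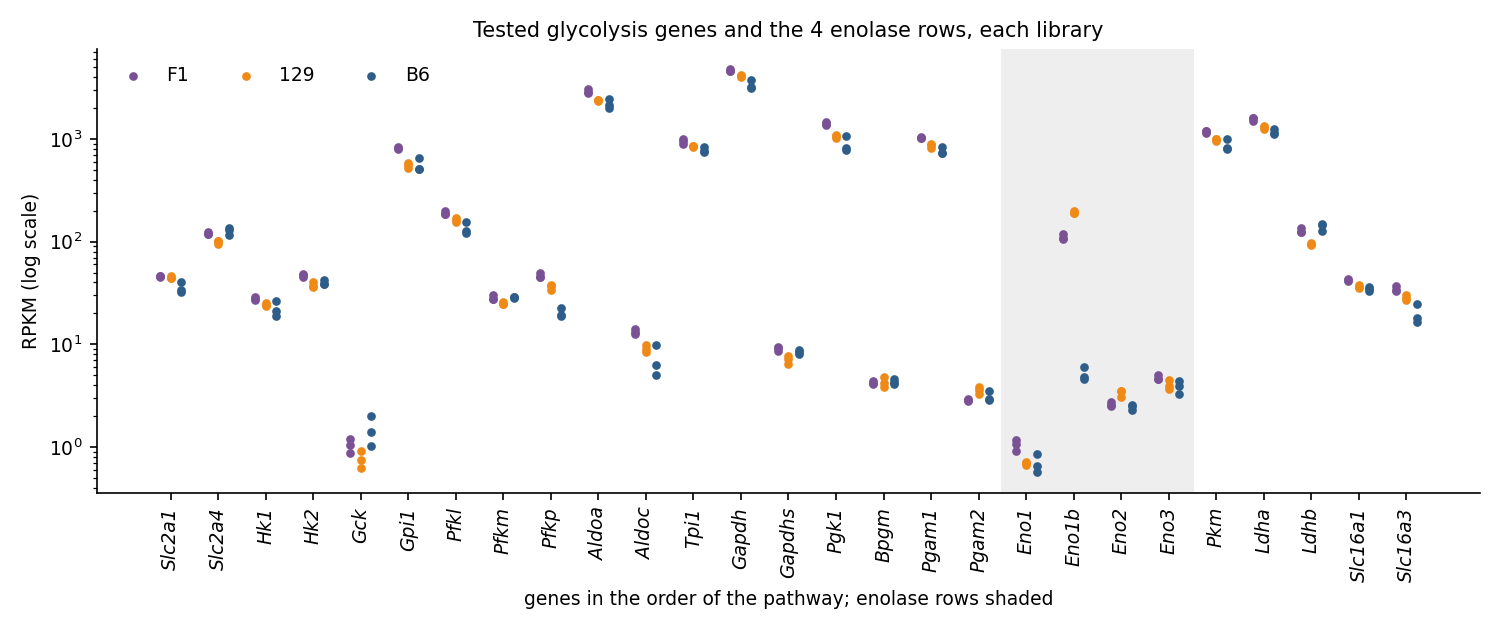
RPKM on a log axis of the 23 tested glycolysis genes and, shaded, the 4 enolase rows, in pathway order. Each point is a library of F1, 129 or B6. Pkm, next to the shaded rows on the right, and Pgam1, on the left beyond Pgam2, lie between 724 and 1203 RPKM in all libraries. Pgam2, next to the shaded rows on the left, lies between 2.83 and 3.84 RPKM. No enolase row is above 200 RPKM.

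The neighbouring steps had another order of groups than Eno1b. Pgam1 differed by 0.18 (SE 0.07, limma adjusted p = 0.0627) and Pkm by 0.19 (SE 0.08, limma adjusted p = 0.099) for 129 minus B6, neither past the threshold. Both were highest in F1, which was intermediate for Eno1b. F1 minus B6 was 0.43 for Pgam1 (limma adjusted p = 8.76e-04) and 0.44 for Pkm (limma adjusted p = 0.00255), and F1 minus 129 was 0.26 for Pgam1 (limma adjusted p = 0.0174) and 0.25 for Pkm (limma adjusted p = 0.0435). Pgam2, the muscle mutase, was at 2.86 RPKM in F1, 3.56 in 129 and 3.09 in B6, lower in F1 than in 129 (-0.24, limma adjusted p = 0.0288). Bpgm, which makes 2,3-bisphosphoglycerate, passed in no comparison, and Pklr, the pyruvate kinase of liver and red cells, was listed at 0 in all libraries.

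Of 28 genes of glycolysis, glucose uptake and lactate handling other than the enolases, 23 passed the filter. F1 was above B6 in 16 of them and below in 0, with a median log2 difference of 0.38, beside -0.04 over all genes tested, of which 11.0% passed as higher and 20.2% as lower. The smallest p belonged to the phosphofructokinase Pfkp, at 46.8 ± 2.46 RPKM in F1 and 20.3 ± 2.19 RPKM in B6 (1.17, SE 0.07, limma adjusted p = 2.33e-06), followed in order of p, Pgam1 aside, by the lactate exporter Slc16a3 (0.80), lactate dehydrogenase Ldha (0.43), the carrier Slc16a1 (0.30), Pfkl (0.51) and phosphoglycerate kinase Pgk1 (0.66). After median-of-ratios rescaling the calls over all genes in this comparison were 1735 higher and 1753 lower, against 1270 and 2329 before it. Every F1 library was deeper than every B6 library, and the part of depth in these counts was not tested.

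F1 was above 129 in 14 of the 23 genes and below it in 1, Pgam2, with a median of 0.26, beside -0.01 over all genes, of which 12.0% passed as higher and 15.7% as lower. Among the 14 were lactate dehydrogenase Ldhb (0.44), the glucose phosphate isomerase Gpi1 (0.56), hexokinase Hk2 (0.31), Pfkp (0.37), Gapdhs (0.32) and the glucose transporter Slc2a4 (0.30). Without 129 replicate 1 the number called was 8, 7 higher and 1 lower, and without a filter on low values it was also 8, all higher. Against the mid-parent value 17 of 23 were higher and 0 lower, where 8.35% of all genes passed as higher and 14.8% as lower, with Gpi1 at 0.56 and Pfkp at 0.77. Median-of-ratios rescaling gave 1298 higher and 1348 lower calls over all genes there, against 964 and 1712 before it.

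Between the parental strains the pathway was split. For 129 minus B6, 5 of the 23 genes were higher and 5 lower, where 15.9% of all genes passed as higher and 21.7% as lower. The median was 0.16, beside -0.03 over all genes. Median-of-ratios rescaling gave 8 higher and 5 lower of the 23, and 2184 higher and 2075 lower over all genes, against 1834 and 2499 before it. With voom on recovered reads 9 of the 23 were higher and 5 lower. Pfkp (0.80), Slc16a3 (0.53) and the glucose transporter Slc2a1 (0.34) were among the higher, and Ldhb (-0.56), Slc2a4 (-0.36) and Pfkm (-0.19) among the lower. B6 replicate 2 had the highest B6 value of Pgam1, Pkm, Gpi1 and Pfkp. Without it 13 were higher and 4 lower, 17 in all.

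**Figure D4:**
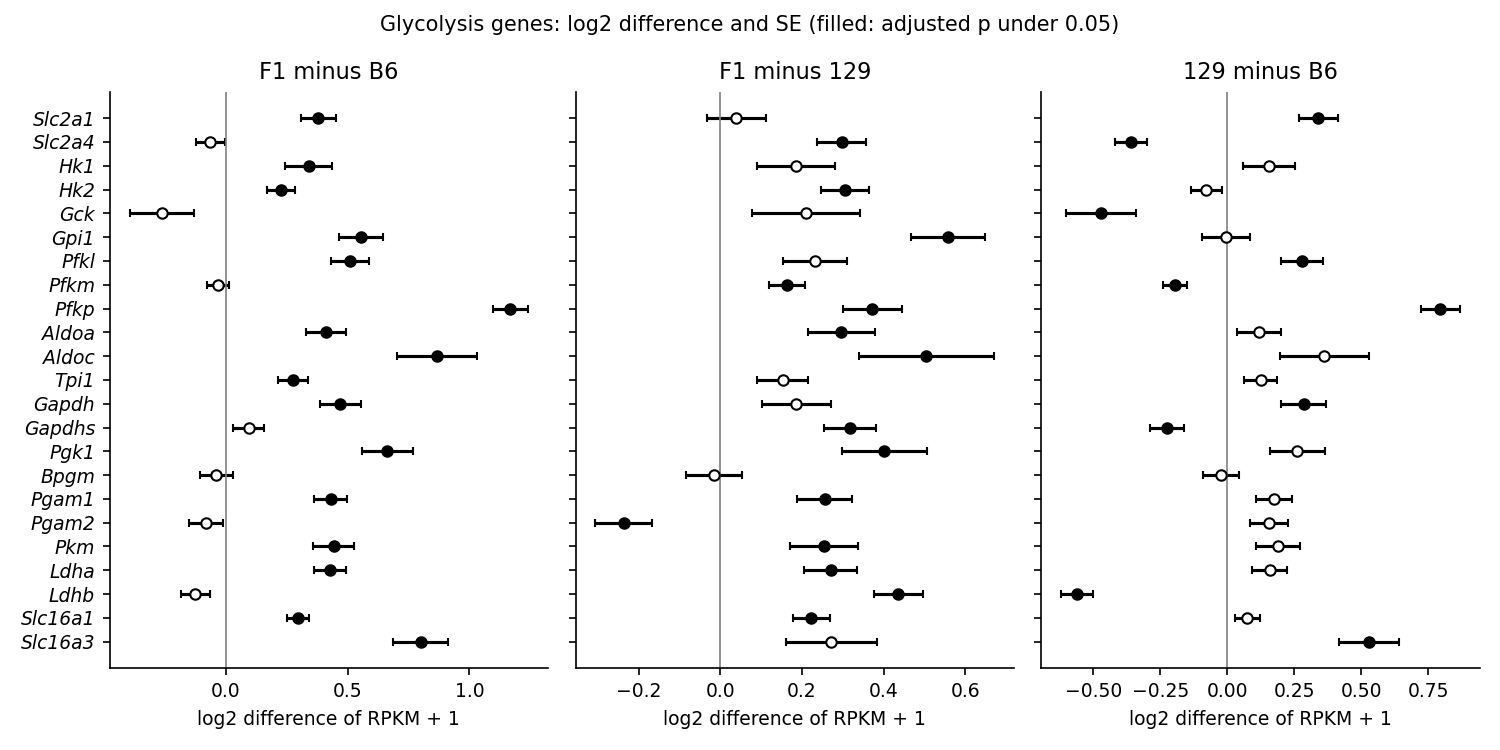
Log2 difference of RPKM + 1 with its SE for the 23 tested glycolysis genes in F1 minus B6, F1 minus 129 and 129 minus B6, each panel on its own scale. Filled points passed an adjusted p of 0.05. All 16 called genes of F1 minus B6 lie right of 0, and the 10 called genes of 129 minus B6 lie on both sides.

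Eno1b was not alone as a row on several chromosomes. Of 54 such rows 36 were listed at 0 in all libraries and 5 were tested, and 3 of the 5 shared exon bases with the row of another gene. All 3 were at least several times higher in 129 than in B6, with F1 between. BC002163, on chromosomes 16 and 4, shares 484 bases with Ndufs5, a subunit of respiratory complex I. It was at 34.7, 43.3 and 37.1 RPKM in F1, 74.7, 71.9 and 80.0 RPKM in 129, and 0.792, 1.38 and 0.491 RPKM in B6. Ndufs5 itself has 25 bases outside that row and was listed at 0 in 8 of the 9 libraries, with 2 reads in B6 replicate 1.

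Gm5801, on chromosomes 14 and 4, shares 1179 bases with Ube2j2, an enzyme of ubiquitin conjugation. It was at 1.48, 0.877 and 0.991 RPKM in F1, 1.72, 2.19 and 2.03 RPKM in 129, and 0, 0.0221 and 0.0157 RPKM in B6. Ube2j2, with 2443 bases outside that row, stayed between 0.209 and 0.699 RPKM in all libraries. The level of F1 lay 50.3% of the way from B6 to 129 for BC002163 and 56.0% for Gm5801, beside 56.1% for Eno1b.

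The remaining pair shared no exon bases with another row. Tsnax, placed on chromosome 8 and on an unplaced piece of it, was at 17.5 ± 0.555 RPKM in F1, 16.7 ± 0.237 in 129 and 16.6 ± 0.322 in B6 (SD, n = 3 each). The small nucleolar RNA Snord58b, on chromosomes 14 and 18, was at 2.05 ± 0.607 RPKM in F1, 2.53 ± 2.12 in 129 and 2.78 ± 0.413 in B6, with overlapping groups. Among all 18 rows on several chromosomes that were not at 0 throughout, 129 and B6 did not overlap in 5 of the 8 that shared exon bases with another row and in 3 of the 10 that did not. Of all genes tested, 49.9% did not overlap between 129 and B6. Some of these rows rested on few reads, such as Cngb1 with 1 to 3 in 129 and 4 to 10 in B6. Tagap, which shares no exon bases with another row and was below the filter, was at 0.404 to 0.459 RPKM in F1, 0.603 to 0.799 in 129 and 0.0845 to 0.127 in B6. Gm5643, which shares exon bases with Hnrnpa1, was at 0.0756 to 0.124 RPKM in F1, 0.0606 to 0.101 in 129 and 0.0754 to 0.129 in B6, so its groups overlapped. Whether sharing bases goes with a strain difference was not tested.

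**Figure D5:**
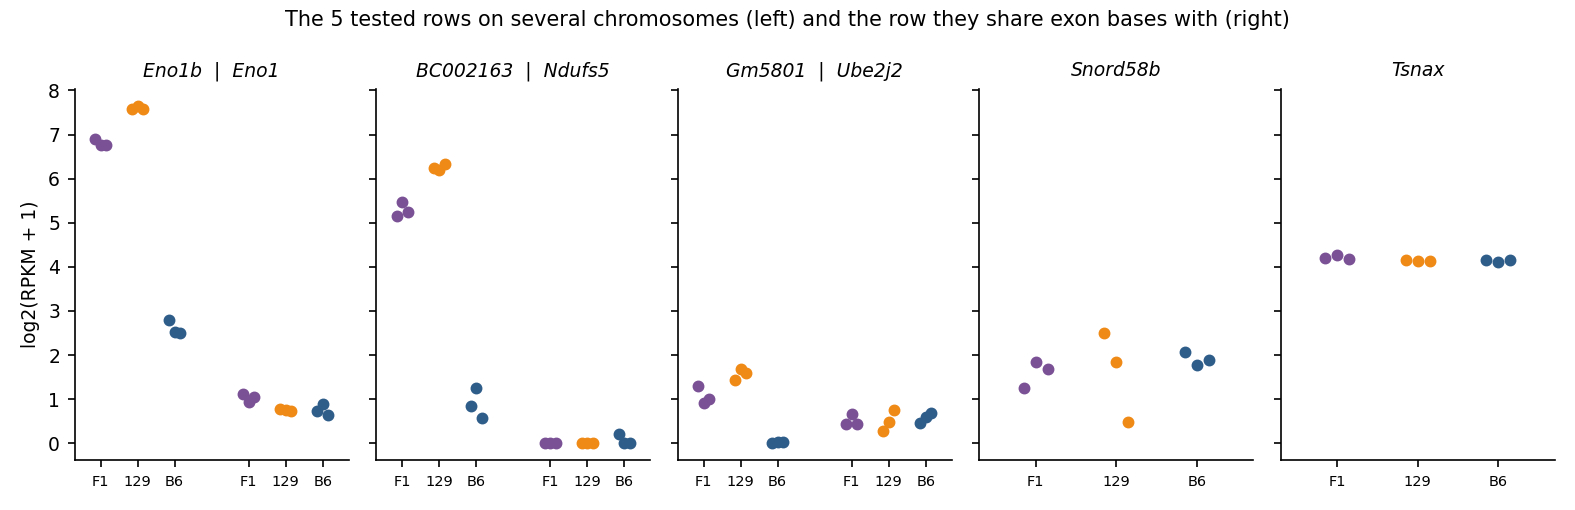
Level as log2(RPKM + 1) in each library of F1, 129 and B6 for the 5 tested rows on several chromosomes, with, to the right in the first 3 panels, the row that shares exon bases with it. Eno1b, BC002163 and Gm5801 are lowest in B6 and highest in 129, their partners Eno1, Ndufs5 and Ube2j2 are low in all groups, and Snord58b and Tsnax do not separate 129 from B6.

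Genes beside the chromosome 4 exons did not show the pattern of Eno1b. Of 11 other rows within 500 kb, 7 were tested, and their log2 differences for 129 minus B6 ran from -0.47 to 0.34, with 3 called higher and 0 lower, beside 15.9% and 21.7% of all genes. The nearest tested gene before the exons, Gpr157, differed by -0.13 (limma adjusted p = 0.0954), and the nearest after them, the corepressor Rere, by 0.02 (limma adjusted p = 0.755). On chromosome 18 there were 2 other rows within 500 kb, neither above 0.0279 RPKM in any library, so none could be tested there. Beside Eno2, the transcriptional regulator Atn1 (-0.08, limma adjusted p = 0.343) and Spsb2 (0.02, limma adjusted p = 0.871) did not pass. Beside Eno3, profilin Pfn1 was higher (0.19, limma adjusted p = 0.0135) and Spag7 lower (-0.19, limma adjusted p = 0.00673) in 129. Among all neighbours tested, only Cxcl16, a chemokine gene near Eno3, had a difference of at least 1 (1.49, limma adjusted p = 5.70e-08), at 7.11 RPKM in 129 and 1.89 RPKM in B6.

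The genes most like each member were found as those with the smallest root-mean-square distance between centred log2(RPKM + 1) profiles over the 9 libraries. For Eno1b they were BC002163 (0.26), Ifi202b (0.29), Tpsab1 (0.35), Cd1d2 (0.62) and Gchfr (0.69), where the median gene stood at 2.21. Each averaged below 1 RPKM in B6 and lay between the parents in F1: Ifi202b, an interferon-inducible gene, averaged 10.8 RPKM in F1, 23.1 in 129 and 0.00723 in B6, and Tpsab1, a mast cell tryptase, 26.0 RPKM in F1, 56.0 in 129 and 0.0208 in B6. For Eno2 they were Cuedc1 (0.03), Kifap3 (0.05) and Zmat2 (0.05), beside a median of 0.19. For Eno3 they were the acetyl-CoA carboxylase Acacb (0.06), the lysosomal protease Ctsa (0.06) and the muscle adenylosuccinate synthase Adssl1 (0.06), beside a median of 0.19. The libraries of a group are alike in many genes, so such distances describe the strain pattern and no more.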

How the data were processed

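Poly(A) RNA libraries were made with a stranded kit, per the labels' protocols, and STAR and mm9 are named in the submitters' processing notes. Not given in the sources used here are the read counter, its strand and overlap settings, the annotation and possible filters. The authors deposited 1 RPKM value per gene and library. RPKM times length summed to the same total in every library, and the values kept steps of 1 read, from which reads were recovered (100% of non-zero rows whole within 0.1 read). A total of 3 unnamed columns, with entries on 31 rows, was not used.

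Tested were 11542 genes, those that reached an RPKM of 1 in 3 or more of the 9 libraries, as log2(RPKM + 1), which understates changes of low genes. The model, in limma 3.58.1 under R 4.3.3, had a mean for each group and a trend of variance with level, estimated from all libraries together. Tests were two-sided, and Benjamini-Hochberg adjustment ran across the genes tested (threshold 0.05). Errors are SD over 3 libraries or limma's SE. Procedures were tested on simulated data. The 4 members and the gene lists were chosen with earlier results of these data known. Named were all members, the glycolysis genes beside enolase and up to 6 others with the smallest p per comparison, the nearest tested neighbours and those differing by at least 1, and the 5 or 3 most alike genes, without predicted genes, RIKEN clones and microRNA genes. Genes named beyond these were chosen after their values were seen.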

Additional observations from a re-analysis of the deposited data

How the results depend on the processing

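Alternatives were another pseudocount (0.1), no filter, a higher filter (mean RPKM of at least 5, which Eno2 and Eno3 miss), median-of-ratios rescaling, a replicate block, voom on recovered reads, and leaving out each library, the last chosen for the glycolysis counts after seeing the data. Eno2 in F1 minus 129 passed in all 14 alternatives run. With pseudocount 0.1 and voom, Eno1b was 5.22 and 5.24 for 129 minus B6 and 4.42 and 4.44 for F1 minus B6, Eno2 was 0.44 and 0.46 for 129 minus B6, and Eno1b was 1.82 above mid-parent with voom. Eno3 passed for F1 minus B6 with rescaling (0.28), the replicate block (0.24) and voom (0.32), for F1 minus mid-parent in the same settings (0.25, 0.22 and 0.28), and for F1 minus 129 with the block (0.20). The block rests on a number only, since same-numbered libraries of different groups had deviations correlated at -0.19 to 0.22. Without a filter 8 glycolysis genes were called in F1 minus 129. Leaving out each library gave 7 to 17 glycolysis calls for 129 minus B6, 14 to 18 for F1 minus B6 and 8 to 20 for F1 minus 129. It put Eno3 at 0.15 to 0.32 for F1 minus B6 and 0.18 to 0.26 for F1 minus mid-parent. Why these calls moved was not tested, and Eno1, at 27 to 96 reads per library, is the member that depth limits most.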

Other observations

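A further enolase family gene, Eno4, known from sperm, was close to undetected. It had 1 to 4 reads per library in F1, 2 to 4 in 129 and 0 to 3 in B6, with means of 0.0182 RPKM in F1, 0.0456 in 129 and 0.0246 in B6.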
